A study of Zea mays with 42 samples.

Results

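Between 10 and 25 days after pollination (DAP), 92 maize probe sets brightened at least 4-fold in both tissues of the seed, the embryo and the endosperm, among 17555 maize probe sets on the array. A probe set is a group of short oligonucleotides that reads one transcript, and the scanner's brightness for it, summarized per array, is its signal. Members were chosen by the mean linear signal of the 25 DAP arrays over that of the 10 DAP arrays, with means under 100 set to 100, and the ratio had to reach 4 in both tissues. Of the 532 probe sets that reached 4 in the embryo and the 414 that reached it in the endosperm, 96 reached it in both, which is 18.05% of those in the embryo and 23.2% of those in the endosperm. The probe set of the dehydrin gene dhn1 and 3 probe sets whose highest embryo mean was at least 8 times the mean of every other tissue were left out. The ratios are therefore the basis of the choice and are given as a description.

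The data come from 42 arrays of the untreated inbred line B73, 3 arrays labelled as biological replicates for each of 14 tissues. The seed tissues were embryo and endosperm at 10, 15, 20 and 25 DAP, and the 6 non-seed tissues were root, stem, stem tip, leaf, silk and ear. Silk and ear were taken before pollination, and root, stem, stem tip and leaf at the big trumpet period, a vegetative stage before tasselling. The labels do not say how embryo and endosperm were separated or whether ears were pooled. In such whole-tissue RNA, more cells of a type and more RNA per cell cannot be told apart.

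The embryo and the endosperm of a maize kernel arise from a double fertilization, and they mature together while the kernel fills. The embryo lays down oil and globulins, and its outer storage organ, the scutellum, later feeds the seedling. The endosperm fills with starch and zein storage proteins and is bounded by the aleurone, a cell layer that stays alive in the dry grain. Late in filling, the hormone abscisic acid is known to turn on maturation genes in embryo and aleurone, among them those for late embryogenesis abundant (LEA) proteins, which protect cells as the seed dries.

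Of the members, 11 could be tied to a gene and 81 could not, so most are described by their pattern and named by probe set ID. The 92 members fall into 86 transcript clusters of the array's design, and 10 members share 4 of the clusters. The array's design marks 16 members with a suffix for probe sets able to read related transcripts (_a in 6, _s in 6 and _x in 4), so related genes may contribute to their signal.

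Replicates correlated at a median r of 0.991 over all probe sets. The root pairs were lower, at 0.930, 0.932 and 0.985, with 1 array apart from the other 2, and the lowest stem pair was at 0.953. Array medians lay between 372 and 534. The tissue labels were checked with transcripts of the embryo, zeins, 2 endosperm cell layers and leaf. Not all of those for the seed told the seed tissues apart. The summed signal of 4 embryo markers (glb1, glb2, ole1 and EMB5) was 72793 to 74372 in 25 DAP embryos and 14658 to 16735 in 25 DAP endosperm, and 267 to 494 in non-seed arrays. The summed signal of 14 zein probe sets was 109851 to 223105 in endosperm arrays and 3285 to 5453 in 20 and 25 DAP embryos. One of them, Zm.34.1.A2_a_at of gz27, had similar 25 DAP means, 1396 in embryos and 1421 in endosperm. Sums of 6 aleurone probe sets overlapped at 25 DAP, at 4543 to 4900 in embryos and 4652 to 5538 in endosperm. Those of 5 probe sets for the basal transfer layer of the endosperm overlapped as well, at 3440 to 4400 and 4388 to 4671. Sums of 7 leaf probe sets were highest in leaf, at 89556 to 98319, but high in silk too, at 56137 to 59262. They were 36973 to 43611 in stem, 20068 to 37783 in stem tip, 16796 to 25400 in ear and 1887 to 2566 in root. Some seed arrays stood apart too. Zein sums were 22357 to 63320 in 10 DAP embryos, and in 15 DAP embryos they were 4343, 52677 and 4556 in replicates 1, 2 and 3. The embryo marker sum was 1231, 6603 and 3721 in replicates 1, 2 and 3 of 20 DAP endosperm, against 2215, 1730 and 6375 at 15 DAP. Most of it was ole1, at 705, 5723 and 2519 in 20 DAP endosperm and 1715, 1211 and 5616 at 15 DAP. In the same 20 DAP arrays glb1 read 194.5, 506 and 713, EMB5 147, 173 and 218, and glb2 184, 201 and 271. Replicate 3 of the 10 DAP embryos was the lowest of its group in 48 of the 92 members. Of the arrays at 25 DAP, which also chose the members, replicate 1 of the embryos was the lowest in 59, and in the endosperm replicate 3 was the lowest in 63 and replicate 2 the highest in 66. The part of these arrays in the levels was not tested beyond the values without them given beside each result.

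The embryo ratios of the members ran from 4.005 to 76.5 with a median of 8.85, and the endosperm ratios from 4.02 to 102 with a median of 7.29. The embryo ratio was the larger one in 48 members and the endosperm ratio in 44. The largest smaller ratios belonged to Zm.13387.1.S1_s_at (26.6), Zm.16021.1.S1_at (26.2), Zm.1444.2.A1_at (25.0) and Zm.2147.1.A1_a_at (21.4). Just inside the limit were Zm.9984.1.A1_at and Zm.17573.1.A1_at (4.02 each) and Zm.14833.1.A1_at (4.005), and just outside it were ZmAffx.377.1.A1_at (3.996), Zm.8307.2.A1_a_at (3.99) and Zm.19024.1.A1_at (3.98). Without replicate 1, 2 or 3 of every tissue, 95, 87 and 95 probe sets met the rule, and 89, 84 and 87 of them were among the 92. For comparison, 24 maize probe sets were at least 4-fold lower at 25 than at 10 DAP in both tissues.

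**Figure D1:**
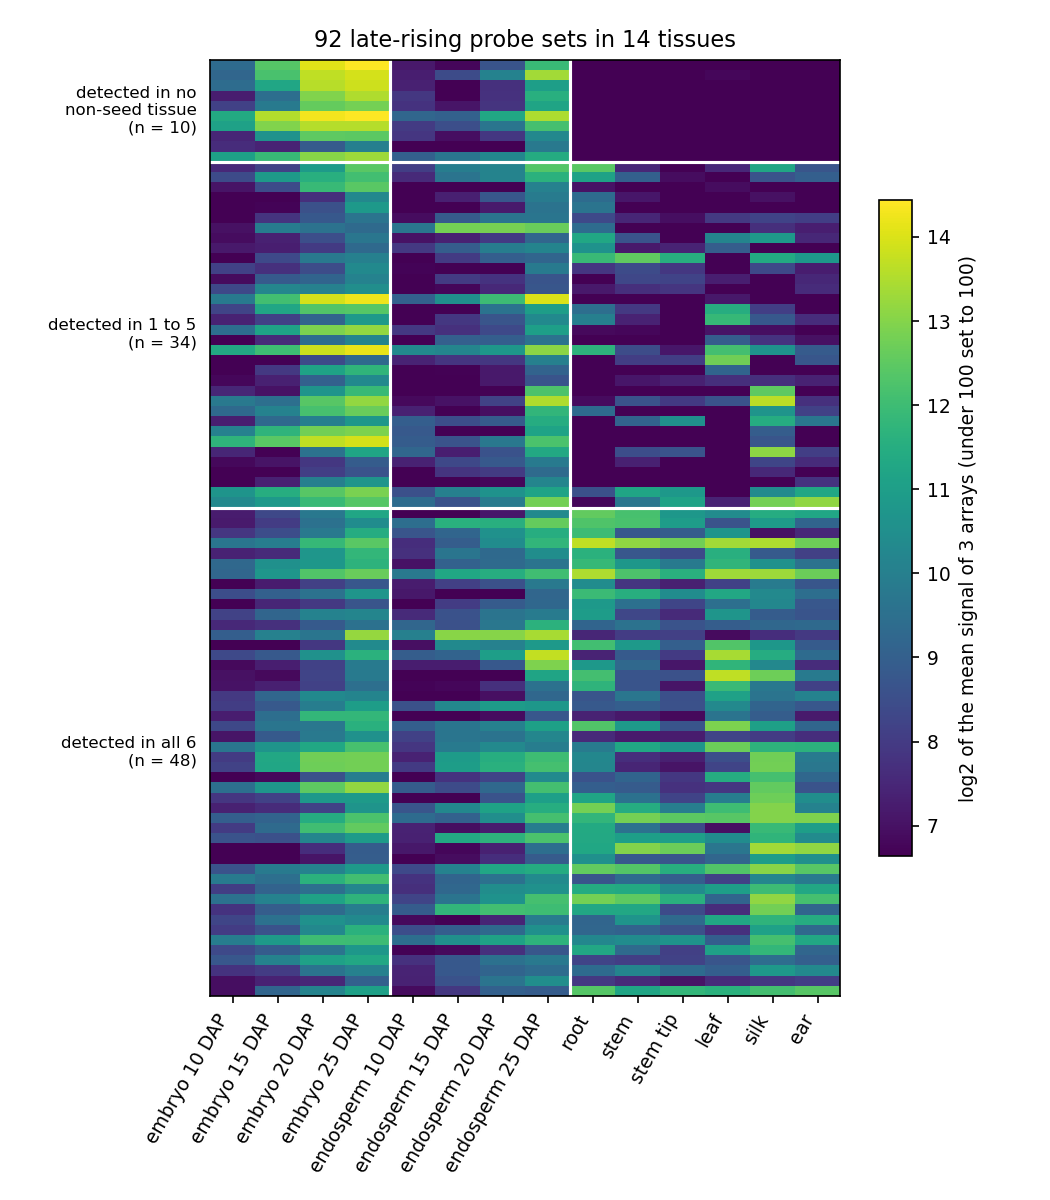
Mean signal of the 92 members (rows) in 14 tissues (columns), as log2 of the mean of 3 arrays with means under 100 set to 100. Rows are grouped by the number of non-seed tissues in which all 3 arrays reached 100, and the 10 rows at the top stay dark outside the seed while many rows of the group of 48 are as bright in root, leaf or silk as in the seed.

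The members with a gene name include genes for a LEA protein, a metal-binding protein, amino acid metabolism, the glyoxylate cycle and defence. Of 7 probe sets of LEA proteins and dehydrins on the array 1 was a member, and of 16 of defence proteins 2 were. No theme of the members is read from these few genes. The gene mlg3 (GRMZM2G096475) encodes a group 3 LEA protein. Its signals were 826, 698 and 624 at 10 DAP, 1629, 1646 and 1821 at 15 DAP, 5583, 5798 and 5900.0 at 20 DAP and 8863, 9715 and 8905 at 25 DAP in embryos. In the endosperm they were 553, 363 and 539.8 at 10 DAP, 318, 350.5 and 368 at 15 DAP, 280.1, 781 and 801 at 20 DAP and 4959, 4805 and 3487 at 25 DAP. Embryo arrays of successive stages did not overlap, whereas the endosperm arrays at 10, 15 and 20 DAP overlapped and the 25 DAP arrays stood above them all.

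The gene mtl2 (GRMZM2G402564) encodes a metallothionein-like protein, a small cysteine-rich protein that binds metal ions. Its member probe set read 2603, 3068 and 2113 at 10 DAP, 3532, 4232 and 4592 at 15 DAP, 14426, 14189 and 15651 at 20 DAP and 17919.8, 18578 and 18499.9 at 25 DAP in embryos. Endosperm arrays read 1365, 1316 and 1253 at 10 DAP, 1102, 984 and 1447 at 15 DAP, 607, 2893 and 1771 at 20 DAP and 8406, 8892 and 8582 at 25 DAP. The 20 DAP endosperm arrays spread over all the values of the 2 earlier stages, and replicate 1 was the lowest of them. This probe set carries the _x suffix, and the second mtl2 probe set, Zm.144.2.A1_at, stayed at means of 73.7 to 159 over the 8 seed tissues, with a ratio of 1.22 in the embryo and 1.44 in the endosperm.

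The gene mas1 (GRMZM2G102183) encodes malate synthase, an enzyme of the glyoxylate cycle, which is known for turning stored oil into sugar in germinating seeds. It had 391, 359.9 and 288 at 10 DAP, 1818, 1915 and 1916 at 15 DAP, 3226, 3051 and 2843 at 20 DAP and 4481, 4087 and 4434 at 25 DAP in embryos. The endosperm followed with 200.4, 207 and 159.7 at 10 DAP, 665, 839 and 915 at 15 DAP, 1068, 1183 and 1115 at 20 DAP and 3089, 3448 and 2988 at 25 DAP. No array of a stage overlapped the arrays of the next stage in either tissue, so mas1 was brighter at each later stage in both.

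The gene hmt4 (GRMZM2G039166) encodes a homocysteine methyltransferase, an enzyme of methionine formation, and lkrsdh1 (GRMZM2G181362) the bifunctional enzyme that starts the breakdown of lysine. For hmt4 the signals were 885, 715 and 502 at 10 DAP, 1868, 2519.9 and 2502 at 15 DAP, 7538, 7477 and 8045 at 20 DAP and 8959, 9277 and 9224 at 25 DAP in embryos. Its endosperm signals were 253, 223 and 256 at 10 DAP, 203, 212 and 223 at 15 DAP, 169, 466 and 347 at 20 DAP and 2127, 2287 and 1929 at 25 DAP. The embryo was well above the endosperm at every stage. For lkrsdh1 they were 186, 184 and 184 at 10 DAP, 219, 233 and 187 at 15 DAP, 455, 460.5 and 463 at 20 DAP and 681, 842 and 734 at 25 DAP in embryos. In endosperm lkrsdh1 read 564, 723 and 478 at 10 DAP, 513, 289 and 336 at 15 DAP, 788, 985 and 787 at 20 DAP and 3177, 3688 and 2775 at 25 DAP. Here the order was turned round, with the endosperm above the embryo at each stage.

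Among the defence genes, Zlp (GRMZM2G374971) encodes a zeamatin-like protein of the thaumatin family, whose members act against fungi, and prp2 (GRMZM2G102356) was listed with the pathogenesis-related genes. Zlp read 112, 107 and 129 at 10 DAP, 171, 156 and 148 at 15 DAP, 299.6, 262 and 295 at 20 DAP and 914, 971 and 865 at 25 DAP in embryos. In the endosperm it read 186, 146 and 130.0 at 10 DAP, 146, 168 and 148 at 15 DAP, 187, 385 and 749 at 20 DAP and 8091, 7995 and 7317 at 25 DAP. The 20 DAP endosperm arrays were still far under those at 25 DAP, and the 25 DAP endosperm mean was 8.51 times the embryo mean. A second Zlp probe set on the array gave an endosperm ratio of 5.54 and an embryo ratio of 1.17, so the 2 probe sets disagree in the embryo. For prp2 the 20 DAP endosperm arrays read 167, 2133 and 523 in replicates 1, 2 and 3, against 292, 297 and 573 at 15 DAP, so that the stages overlapped.

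**Figure D2:**
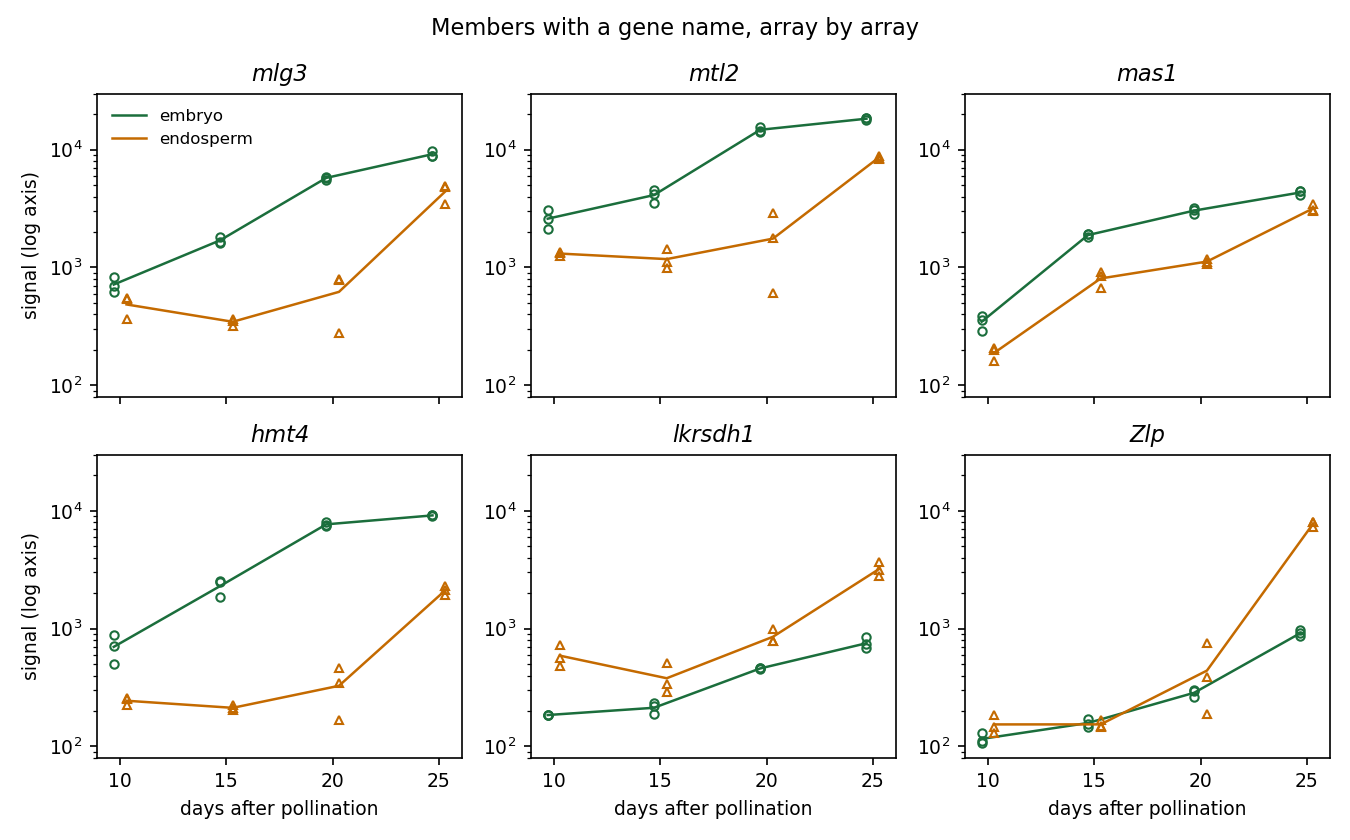
Signal (log axis) of 6 members with a gene name against days after pollination; circles are embryo arrays, triangles endosperm arrays, and lines join the means of 3 arrays. In mlg3, mtl2 and hmt4 the embryo line climbs earlier and higher, in lkrsdh1 and Zlp the 25 DAP endosperm is the higher one, and the 20 DAP endosperm arrays of mlg3, mtl2, hmt4 and Zlp lie far apart.

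The interval of the largest gain differed between the 2 tissues in many members, but not in all. With means under 100 set to 100, the largest log2 step in the embryo lay between 10 and 15 DAP in 29 members, between 15 and 20 DAP in 42 and between 20 and 25 DAP in 21. In the endosperm these counts were 30, 7 and 55. The most frequent combination, 31 members, had its largest embryo step between 15 and 20 DAP and its largest endosperm step between 20 and 25 DAP. The interval was the same in both tissues in 16 members for 10 to 15 DAP, in 1 for 15 to 20 DAP and in 14 for 20 to 25 DAP. By 20 DAP the median member had made 76.5% of its log2 rise in the embryo and 48.2% in the endosperm, and by 15 DAP 26.3% in the embryo and 18.2% in the endosperm. The mean was higher at every later stage in 69 members in the embryo and in 47 in the endosperm. A member was highest at 25 DAP among the 4 stages in 85 cases in the embryo and in 87 in the endosperm. The median member mean was 239, 509, 1117 and 2268 in embryos at 10, 15, 20 and 25 DAP, and 169, 344, 546 and 1788 in endosperm. Since the ends of these courses chose the members, the shares of the rise are a description. The 20 DAP endosperm means include replicate 1, the lowest array of its group in 70 members. Without it the median 20 against 15 DAP log2 change of members in endosperm was 0.85, against 0.63 with it. The steps and shares were not computed without this array.

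**Figure D3:**
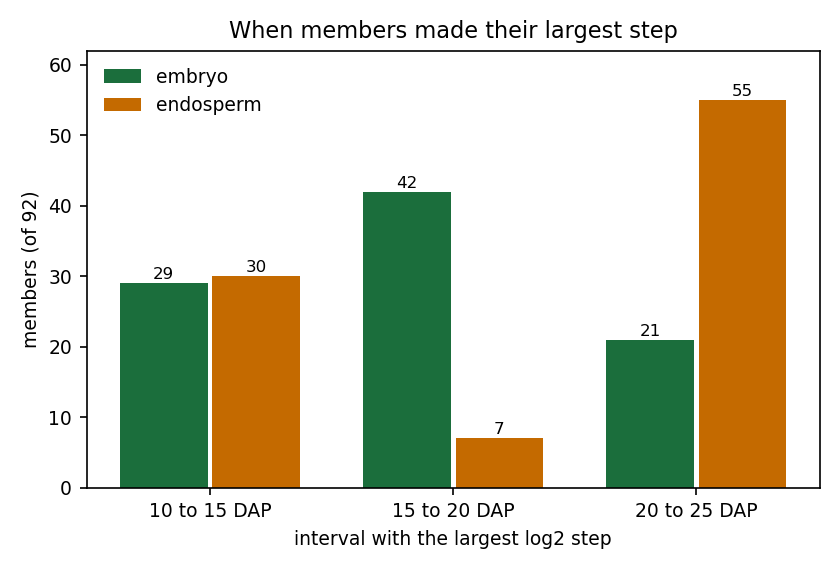
Number of the 92 members whose largest log2 step between stage means lay in each interval, for embryo (left bar of each pair) and endosperm (right bar). The endosperm has few members, 7, with their largest step between 15 and 20 DAP and most, 55, between 20 and 25 DAP. The 20 DAP endosperm means include replicate 1, the lowest array of its group in 70 members.

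The 15 and 20 DAP arrays were used by neither ratio, and the change between them was tested in each tissue. The test is still not independent of the choice, since members were picked for a rise from the earliest to the latest stage. Embryos at 20 DAP were compared with embryos at 15 DAP over 17621 probe sets, the 17555 of maize and 66 for reporter transcripts. A probe set was called at an adjusted p under 0.05 (Benjamini-Hochberg, limma) and a fold of at least 2. In the embryo 55 members (59.8%) were called higher at 20 DAP and none lower, where 2.89% of all probe sets were called higher and 1.47% lower. The median log2 change was 1.28 over the members and 0.01 over all probe sets. No member was lower at an unadjusted p under 0.05 either. All 3 arrays at 20 DAP lay above all 3 at 15 DAP in 86 members (93.5%) and in 24.5% of maize probe sets. The choice of members favoured calls higher and made calls lower unlikely, so these contrasts with all probe sets are a description. Other probe sets that rose in the embryo were not used as a comparison. Without replicate 2 of the 15 DAP embryos, the array with the high zein sum, 54 members were called higher, 52 of them among the 55. Without replicate 3 of every tissue 43 were called higher, all among the 55.

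Endosperm at 20 DAP against 15 DAP gave fewer calls, and here too the choice of members favoured calls higher. Here 16 members (17.4%) were called higher and none lower in limma, where 0.919% of all probe sets were called higher and 0.647% lower, and none was lower at an unadjusted p under 0.05. The median log2 change was 0.63 over the members and 0.07 over all probe sets. The arrays of the 2 stages did not overlap upward in 45 members (48.9%), and in 26.1% of maize probe sets. Replicate 1 of 20 DAP endosperm was the lowest of its group in 70 members and lay below every 15 DAP array in 29. This array also had the lowest embryo marker sum, which was mostly ole1. Without it 29 members were called higher, 14 of them among the 16. Without replicate 2 of every tissue 8 were called, and without replicate 3 of every tissue 7. Signals centred on the hybridization controls gave 7 calls. Both tissues were called in 7 members, among 18 of all probe sets (0.102%).

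Of the 7, Zm.14415.1.A1_a_at read 3757, 3628 and 3719 in 20 DAP embryos and 971, 933 and 1073 in 15 DAP embryos, a log2 change of 1.90 ± 0.18 (SE, adjusted p = 2.84e-09). In endosperm it read 1013, 1685 and 1452 at 20 DAP and 483, 469 and 534 at 15 DAP, a log2 change of 1.45 ± 0.18 (SE, adjusted p = 1.92e-06). Zm.3376.1.A1_at behaved alike, with a log2 change of 2.35 ± 0.15 (SE, adjusted p = 1.86e-13) in the embryo and a log2 change of 1.42 ± 0.15 (SE, adjusted p = 7.69e-08) in the endosperm. The gene lkrsdh1 was called in both tissues as well. Its change was 1.12 ± 0.29 (adjusted p = 0.00686) in the embryo and 1.21 ± 0.29 (adjusted p = 0.00646) in the endosperm, and both calls were lost without replicate 3 of every tissue (adjusted p = 0.149 in the embryo and 0.148 in the endosperm). The endosperm call of lkrsdh1 was also lost without replicate 2 of every tissue (adjusted p = 0.12) and with arrays centred on the hybridization controls (0.0968).

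The other genes with names were called in the embryo or not at all. The embryo change was 1.76 ± 0.36 (adjusted p = 0.000587) for mlg3, 1.85 ± 0.38 (adjusted p = 0.00074) for mtl2 and 1.76 ± 0.21 (adjusted p = 2.49e-07) for hmt4. For mtl2 the adjusted p was 0.0542 without replicate 3 of every tissue. In the endosperm the same genes gave 0.70 ± 0.36 (adjusted p = 0.245) for mlg3, 0.33 ± 0.38 (adjusted p = 0.669) for mtl2 and 0.50 ± 0.21 (adjusted p = 0.149) for hmt4, none of them a call. The change of mas1, 0.69 ± 0.48 in the embryo and 0.49 ± 0.48 in the endosperm, did not pass, although its arrays did not overlap, and that of Zlp in the endosperm, 1.30 ± 0.42 (adjusted p = 0.0504), did not pass either.

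**Figure D4:**
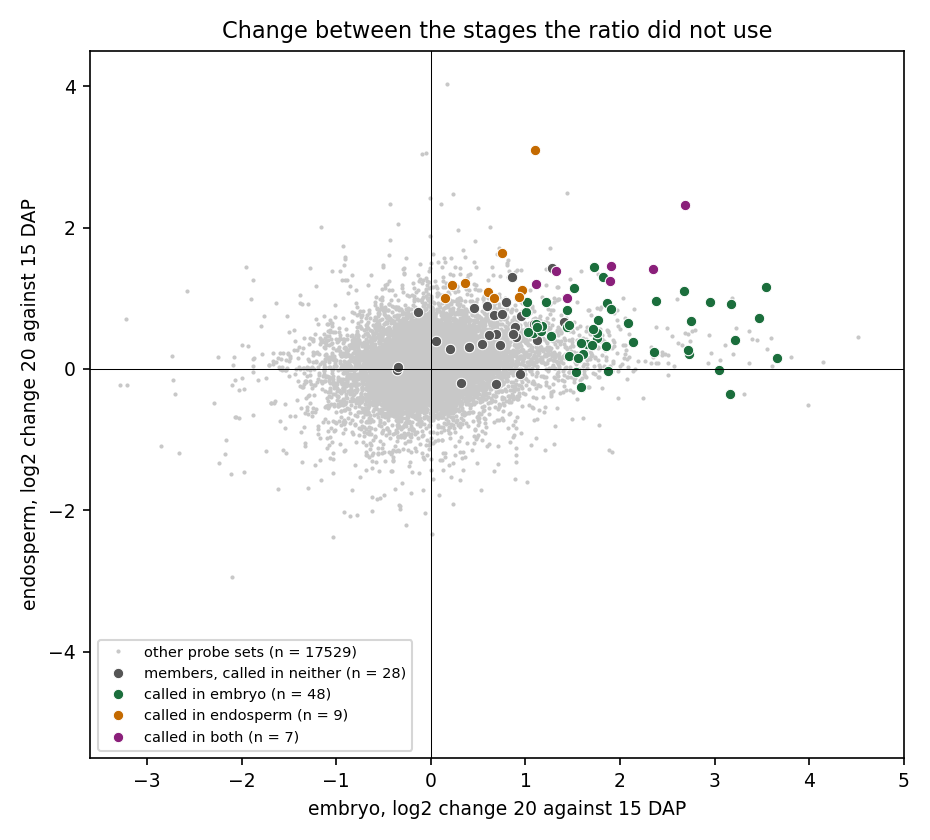
Log2 change of 20 against 15 DAP in embryo (x axis) and endosperm (y axis), from the limma fit; grey dots are the 17529 other probe sets and large dots the 92 members, coloured by the tissue in which they were called. The 48 members called in the embryo alone spread to the right at small endosperm changes, and 9 were called in the endosperm alone.

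Whether the 20 against 15 DAP change differed between the tissues was tested by taking the endosperm change from the embryo change. The change was larger in the embryo in 24 members (26.1%), and larger in the endosperm in none, where 1.72% and 2.06% of all probe sets were called in these directions by limma. At an unadjusted p under 0.05, 4 members had the larger change in the endosperm and 39 in the embryo. The median difference was 0.52 over the members and -0.05 over all probe sets. Without replicate 1 of every tissue 12 members were called and without replicate 3 of every tissue 14. Without replicate 1 of 20 DAP endosperm alone, 18 were called, 1 further member was called with the larger change in the endosperm, and the median difference was 0.30. Without replicate 2 of 20 DAP endosperm, 27 were called and the median was 0.86, and centring on the hybridization controls gave 28 and 0.87. In the 2 members with the largest differences, the embryo arrays of the stages lay far apart while those of the endosperm overlapped. These members were picked by that difference, so the pattern is a description. Zm.9749.1.S1_a_at read 1811, 1523 and 1815 in 20 DAP embryos and 203, 194 and 178 in 15 DAP embryos. Its 20 DAP endosperm arrays read 608, 747 and 535 and those at 15 DAP 629, 914 and 886, a difference of changes of 3.51 ± 0.35 (adjusted p = 1.85e-08). Zm.2147.1.A1_a_at had 1368, 1679 and 1880.3 in 20 DAP embryos, 101, 132 and 159 in 15 DAP embryos, and a difference of 3.51 ± 0.49 (adjusted p = 9.74e-06). Its endosperm was at 68.6, 93.6 and 145 at 20 DAP and 101, 82.2 and 82.0 at 15 DAP, and then at 5025, 4834 and 4699 at 25 DAP, above the 25 DAP embryos (4047, 3690.1 and 3609.8). The further differences among the 5 highest were 3.06 ± 0.45 (adjusted p = 2.07e-05) in Zm.9943.1.A1_at, 2.80 ± 0.33 (adjusted p = 6.9e-07) in Zm.15183.1.A1_at and 2.74 ± 0.34 (adjusted p = 1.31e-06) in Zm.9859.1.A1_at. The 15 DAP embryo arrays of Zm.9943.1.A1_at were all under 100, so its embryo fold is at least 3.37 with those signals at 100.

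At the other end, 4 of the 5 members with the lowest differences were called in the endosperm and not in the embryo. A low difference picks members with a large endosperm change and a smaller embryo change, so this count is a description of the pick. Zm.11530.2.A1_at read 638, 981 and 716 in 20 DAP endosperm and 112, 80.1 and 79.9 in 15 DAP endosperm, a log2 change of 3.10 ± 0.57 (SE, adjusted p = 0.000432). In the embryo its change was 1.10 ± 0.57 (adjusted p = 0.209), and the difference, -1.99 ± 0.81 (adjusted p = 0.135), did not pass. Without replicate 3 of every tissue the endosperm change of Zm.11530.2.A1_at had an adjusted p of 0.0508. Zm.13797.1.A1_at and Zm.17848.1.A1_s_at had endosperm changes of 1.18 ± 0.14 (adjusted p = 4.28e-07) and 1.22 ± 0.14 (adjusted p = 5.06e-07). Their differences of -0.96 ± 0.20 (adjusted p = 0.00143) and -0.86 ± 0.20 (adjusted p = 0.00619) were under the fold of 2. In Zm.2484.1.A1_at the endosperm arrays at 20 DAP read 387, 4300.3 and 2775 against 520.2, 489 and 606 at 15 DAP, so its call, 1.64 ± 0.52 (adjusted p = 0.0444), rests on replicates 2 and 3. It was lost without replicate 2 of that group (adjusted p = 0.362) and without replicate 3 (0.248), and also without any one of the 3 endosperm arrays at 15 DAP (0.085 to 0.132).

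Embryo and endosperm levels were set side by side without a test, since the rule removes members by their embryo level. At 25 DAP the embryo mean was at least 2 times the endosperm mean in 31 members, the endosperm mean at least 2 times the embryo mean in 10, and 51 lay within 2-fold. At 20 DAP these counts were 49, 11 and 32, and the median log2 ratio of embryo over endosperm was 0.51 at 25 DAP and 1.19 at 20 DAP. The 10 members higher in the endosperm were led by Zm.8801.1.A1_at, with a mean of 6461 in endosperm and 643 in embryos, and by Zlp. Zm.16227.1.A1_at, Zm.930.1.A1_at, lkrsdh1 and Zm.16849.1.S1_at followed, with endosperm means 4.22 to 4.47 times those of the embryo.

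Embryo marker transcripts were read in 25 DAP endosperm too, and their share of the embryo level was set beside that of the members. At 25 DAP, endosperm had 1.15% of the embryo signal for the globulin gene glb2 (195 against 16984), 2.54% for the LEA gene EMB5 (410 against 16142), 26.9% for the globulin gene glb1 and 45.6% for the oleosin gene ole1. The members had 12.2% to 1005% (median 70.4%), with all 92 above glb2 and EMB5, 79 above glb1 and 64 above ole1. The rule read these 25 DAP means and left out probe sets restricted to the embryo, so high shares were in part fixed by the choice and the comparison is a description. The hybridization controls, transcripts added in fixed amounts, averaged 11.13, 11.50, 11.65 and 11.64 log2 units in endosperm at 10, 15, 20 and 25 DAP, and 10.92, 11.02, 10.83 and 10.82 in embryos. With arrays centred on these controls 67 probe sets met the rule, 60 of them among the 92, and with arrays centred on their median 62 did, 61 of them among the 92.

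**Figure D5:**
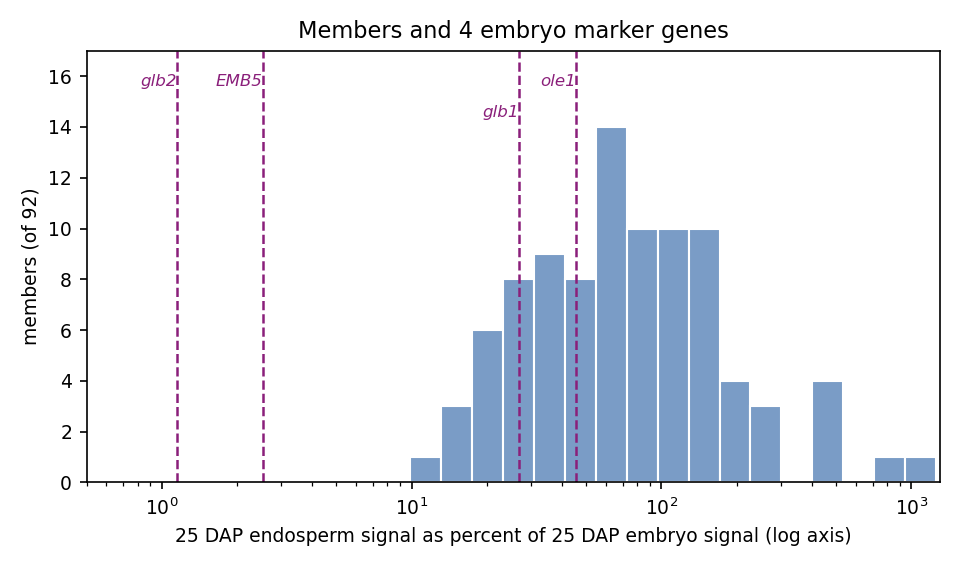
Distribution over the 92 members of the 25 DAP endosperm mean as a percent of the 25 DAP embryo mean (log axis), with the same percent for 4 embryo marker genes as dashed lines. All members lie to the right of glb2 (1.15%) and EMB5 (2.54%), and 64 lie to the right of ole1 (45.6%), but the rule read the same 25 DAP means and left out embryo-restricted probe sets.

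Outside the seed, the shares of members detected everywhere and nowhere were both somewhat below those of all maize probe sets. With detection taken as a signal of at least 100 in all 3 arrays, 48 members (52.2%) were detected in all 6 non-seed tissues and 10 (10.9%) in none, against 59.9% and 16.5% of all maize probe sets. At a signal of 200 the members detected in none were 18, and at 50 they were 5. The highest of all 14 tissues was a seed tissue for 52 members, most often the 25 DAP embryo (37) or the 25 DAP endosperm (11), and a non-seed tissue for 40, most often silk (18), root (11) or leaf (8). In 24 members a non-seed mean was at least 2 times the highest seed mean. These counts of tissues were not compared with those of all maize probe sets. The rule also read the 25 DAP means, so the counts are a description.

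The 10 members detected in no non-seed tissue had a brightest non-seed array of 44.7 to 125. Their means at 25 DAP were 1032 to 22133 in embryos and 891 to 11296 in endosperm, and in all 10 the embryo was the higher of the 2. In 20 DAP endosperm, replicate 1 was the lowest of the 3 arrays for all 10. Zm.13387.1.S1_s_at read 1098, 744 and 143 at 10 DAP, 4127, 5834 and 6019 at 15 DAP, 16742, 17038 and 18354 at 20 DAP and 20811, 22179 and 22115 at 25 DAP in embryos. Its endosperm arrays read 138, 135 and 160.4 at 10 DAP, 109, 119 and 105 at 15 DAP, 92.2, 723 and 408 at 20 DAP and 3444, 4669 and 3440.2 at 25 DAP. The 10 DAP embryo replicate 3 was far under the other 2, and the 20 DAP endosperm arrays ranged from below to well above those at 15 DAP. Its embryo change of 1.73 ± 0.48 (adjusted p = 0.0108) was lost without replicate 1 of 15 DAP embryos (adjusted p = 0.0532) and without replicate 2 (0.107) or 3 (0.05002) of every tissue. Zm.11928.1.A1_s_at had the largest embryo ratio, 76.5. It read 7929, 7739.7 and 8378 in 20 DAP embryos and 513, 778 and 805 in 15 DAP embryos, a log2 change of 3.55 ± 0.40 (SE, adjusted p = 6.24e-08). Zm.13389.1.S1_at and Zm.13506.1.S1_at were called there too, with 2.75 ± 0.18 (adjusted p = 5.92e-13) and 2.39 ± 0.25 (adjusted p = 1.72e-08). In the embryo 8 of the 10 were called higher, where 2.89% of all probe sets were. In the endosperm 2 were, Zm.2484.1.A1_at and Zm.12912.1.A1_at, where 0.919% of all probe sets were. The 10 were picked by their non-seed arrays among members already picked by their rise, so nothing is read from these counts. The endosperm call of Zm.12912.1.A1_at was lost without replicate 2 (0.70, adjusted p = 0.218) or 3 (adjusted p = 0.0717) at 20 DAP, without replicate 1 (0.136) or 2 (0.0868) at 15 DAP and on the hybridization controls (0.147) in limma. That of Zm.2484.1.A1_at was lost without replicate 2 (0.95, adjusted p = 0.362) or 3 (0.248) at 20 DAP and without any single array at 15 DAP (adjusted p of 0.0850 to 0.132).

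Levels outside the seed were compared with 20 DAP endosperm, a stage that the ratio did not use. Set against the average of those 6 tissues, 33 members (35.9%) were called higher in 20 DAP endosperm and 22 (23.9%) lower, where 20.1% and 21.9% of all probe sets were called by limma. The median log2 difference was 0.50 over the members and 0.06 over all probe sets. It was 0.13 without replicate 2 of 20 DAP endosperm, 0.32 without replicate 3 and 0.11 with signals under 100 set to 100. Leaving out each root array in turn gave 33 higher and 22 or 23 lower. Centring on the hybridization controls gave a median of -0.05 over the members and -0.49 over all probe sets, with 26 calls higher and 33 lower, so the sign of the median depends on the scaling. The 10 members detected in no non-seed tissue were all among those called higher, but they were picked by the same non-seed arrays, so this is a description. Zm.2484.1.A1_at, at 387, 4300.3 and 2775 in 20 DAP endosperm, was at least 24.9-fold higher with its non-seed signals, all under 100, taken as 100. By the same bound Zm.12912.1.A1_at was at least 8.12-fold higher. Zm.8619.1.S1_at was detected in leaf alone, at 129, 142 and 154, and read 1508, 6005 and 4749 in 20 DAP endosperm and 15614, 16855 and 16106 in 25 DAP endosperm. Its difference of 20 DAP endosperm from the non-seed tissues was the largest among the members, 6.17 ± 0.30 (adjusted p = 5.11e-19).

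The highest non-seed tissue was noted for every member, also for those brightest in the seed or detected in no non-seed tissue. It was most often silk, leaf or root. The counts that follow were not compared with those of all maize probe sets, so no preference of the members is read from them. Silk, the stigma and style of the maize flower, was the highest non-seed tissue of 33 members, leaf of 25, root of 21, ear of 7, stem of 4 and stem tip of 2. In 8 members silk was at least 4 times the next non-seed tissue, in 3 members leaf was and in 3 root. Zm.2147.1.A1_a_at read 7054, 5657 and 4812 in silk and a mean of 72.9 in the next non-seed tissue, stem. The LEA gene mlg3 read 3109, 7261 and 7604 in silk, against 304, 238 and 959 in root. Zm.9943.1.A1_at was a leaf probe set, with 6901, 6283 and 7214 in leaf and 981, 1280.5 and 891 in 25 DAP endosperm. Malate synthase mas1 was highest in root, at 1423, 3059 and 2284, and at most 40.2 in leaf.

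The 5 members with the highest mean over the non-seed tissues were all called lower in 20 DAP endosperm. They were picked by the same non-seed arrays that the test used, so the direction was favoured by the pick and the values are a description. Zm.5279.1.S1_at stood out with 84.8, 229.9 and 179 in 20 DAP endosperm and 11434, 8536 and 11627 in silk, a log2 difference of -4.92 ± 0.21 (SE, adjusted p = 3.12e-20) against the non-seed mean. Its highest seed mean, 699 in 25 DAP endosperm, was far under its silk mean of 10532. Zm.14415.1.A1_a_at gave -2.78 ± 0.14 (adjusted p = 2.34e-18), Zm.3376.1.A1_at -2.10 ± 0.11 (adjusted p = 1.55e-17), Zm.2020.1.A1_at -1.26 ± 0.13 (adjusted p = 1.16e-10) and Zm.13797.1.A1_at -1.10 ± 0.11 (adjusted p = 3.47e-11). For Zm.2020.1.A1_at and Zm.13797.1.A1_at the fold was under 2 after quantile normalization (-0.98 and -0.78). Zm.14415.1.A1_a_at remained below its root level at 25 DAP, where it read 5218, 5675 and 5641 in embryos, 3515, 3651 and 3432 in endosperm and 12402, 13943 and 13644 in root.

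Probe sets of one transcript cluster share their target in part and are not separate observations. All 3 probe sets of cluster Zm.1444 were members. Zm.1444.2.A1_at read 291, 241 and 228 at 10 DAP, 1995, 2955 and 2693 at 15 DAP, 6681, 6479 and 7382 at 20 DAP and 6395, 7072 and 7385 at 25 DAP in embryos. Its endosperm read 169.6, 160.0 and 168 at 10 DAP, 1592, 2076 and 2099.8 at 15 DAP, 2789.6, 2937 and 2894 at 20 DAP and 3876, 4178 and 4398 at 25 DAP. It was in silk at 5660.0, 7995 and 6798, near its 25 DAP embryo level, and Zm.1444.2.A1_x_at gave nearly the same values. The third probe set, Zm.1444.1.A1_at, had smaller ratios, 4.14 in the embryo and 4.66 in the endosperm. In cluster Zm.2147, 2 of 3 probe sets were members, and Zm.2147.1.A1_s_at had the largest endosperm ratio of all, 102. In cluster Zm.16524, 3 of 10 probe sets were members. In cluster Zm.8307, 2 of 3 were, and the third missed the rule with an endosperm ratio of 3.99.

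Of the members, 4 belong to head-to-head gene pairs, in which neighbouring genes start close together and are read in opposite directions, the arrangement the study was about. They are GRMZM2G074017 (Zm.1444.1.A1_at), GRMZM2G119769, GRMZM2G132358 and GRMZM5G824205. A probe set of the partner was matched for GRMZM2G074017 alone. GRMZM2G074017 read 995, 988 and 966 at 10 DAP, 1843, 1931 and 1901 at 15 DAP, 4221, 3832 and 4296 at 20 DAP and 3749, 4146 and 4299 at 25 DAP in embryos. The partner GRMZM2G073950 (Zm.2415.1.A1_at) had means of 2230, 1758, 2023 and 1544 in embryos at 10, 15, 20 and 25 DAP, and 1089, 622, 762 and 967 in endosperm, so its 25 DAP means were below its 10 DAP means, unlike those of its neighbour. The primers with which the study amplified the region between these 2 genes, and the region beside GRMZM2G132358, are shown because they bound the regions that the study cloned. They are written 5′ to 3′, and capitals mark the added XbaI (forward primers) or NcoI (reverse primers) site.
GRMZM2G074017 and GRMZM2G073950, forward: TCTAGAccccacgctgttctcacttc
GRMZM2G074017 and GRMZM2G073950, reverse: CCATGGcgccttcccacttcacctac
GRMZM2G431291 and GRMZM2G132358, forward: ctTCTAGAttgttgcgccctcaagcggt
GRMZM2G431291 and GRMZM2G132358, reverse: atcCCATGGcgcgagttttgaagcgatca

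The other pair genes differed in where else they were read. GRMZM2G132358 read 4308, 3538 and 3736 in leaf and 2629, 4249 and 3274 in root, against 714, 712 and 727 in 25 DAP embryos, and its difference of 20 DAP endosperm from the non-seed mean was -1.77 ± 0.20 (adjusted p = 1.45e-09). GRMZM2G119769 read 3633, 3689 and 3935 in leaf and 1818, 1726 and 1993 in 25 DAP embryos. Its embryo change, 1.00 ± 0.22 (adjusted p = 0.00141), sat at the fold limit of the call and was under it after quantile normalization (0.97). GRMZM5G824205 read 542, 567 and 479 in 20 DAP embryos against 193, 131 and 165 in 15 DAP embryos, a log2 change of 1.71 ± 0.36 (SE, adjusted p = 0.000793). It was dim outside the seed, at 237, 230.4 and 151 in leaf.

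Pathway lists over all probe sets show what moved beside the members between 15 and 20 DAP. Over all probe sets 2.89% were called higher and 1.47% lower in the embryo, and 0.919% higher and 0.647% lower in the endosperm. Of 7 probe sets of LEA proteins and dehydrins, 3 were called higher in 20 DAP embryos and none lower. They were dhn1 (3.19 ± 0.59, adjusted p = 0.000204), EMB5 (2.06 ± 0.18, adjusted p = 2.75e-10) and mlg3. None of the 7 was called in the endosperm by limma, or had an unadjusted p under 0.05 there. Of 5 probe sets of storage globulins and oleosins, glb2 was called higher in the embryo (2.55 ± 0.28, adjusted p = 2.98e-08). Of 17 probe sets of antioxidants and metallothionein, mtl2 and the catalase gene cat2 (2.44 ± 0.27, adjusted p = 3.02e-08) were called higher in the embryo and none in the endosperm. No call was made in either tissue among 11 probe sets of abscisic acid genes, 16 of defence proteins, 14 of zeins, 21 of starch synthesis and 28 of ribosomal proteins. At an unadjusted p under 0.05, the defence list had 4 higher and 0 lower in the embryo and 3 higher and 0 lower in the endosperm, and the abscisic acid list 1 higher in each. In the embryo 6 zein probe sets were lower at that level, where replicate 2 at 15 DAP had the high zein sum. The ribosomal list had 8 higher and 1 lower in the embryo and 2 higher and 6 lower in the endosperm, and the starch list 2 higher and 1 lower in the embryo and 3 higher and 1 lower in the endosperm. Heat shock proteins, which help other proteins to fold, were called in the opposite direction. Of their 12 probe sets, 4 were called lower in the embryo and 5 in the endosperm, led by hsp18c (-2.10 ± 0.25, adjusted p = 1.23e-07) and hsp18 (-2.10 ± 0.28, adjusted p = 1.18e-06) in the embryo and by hsp18 (-2.95 ± 0.28, adjusted p = 1.06e-08) and hsp101 (-2.03 ± 0.29, adjusted p = 1.07e-05) in the endosperm. The cyclin genes cyc3 (-1.34 ± 0.23, adjusted p = 6.12e-05) and cyc2 (-1.12 ± 0.17, adjusted p = 7.2e-06) were called lower in the embryo, and the replication gene MCM7 (-1.04 ± 0.32, adjusted p = 0.0392) in the endosperm, among 20 probe sets of cell division.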

How the data were processed

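RNA from 42 samples was hybridized to 1-colour Affymetrix maize arrays, 1 array a sample. The deposited values are linear intensities, 1 signal per probe set, which the authors made with MAS5, as their processing notes name it. The scaling target is not given in the sources used here, so levels of seed and non-seed arrays rest on that scaling. Signals were used as deposited and taken to log2. Group means of all 14 tissues were fitted with limma 3.58.1 in R 4.3.3 (lmFit, eBayes with an intensity trend) over 17621 probe sets (66 of them for reporter transcripts, with 113 control probe sets left out), and p-values were adjusted over all of them by Benjamini-Hochberg. The contrasts were 20 against 15 DAP in embryo and in endosperm, their difference, and 20 DAP endosperm against the non-seed tissues; the 25 against 10 DAP contrast was not tested. The fit was tested on simulated data. Arrays carry no read depth, so their number, 3 a group, limits the precision, and p-values measure only the spread between these samples, since nothing states that they came from separate plants.

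The members, gene lists and tests were chosen with earlier results of these data known. The 15 and 20 DAP arrays entered the choice only through the removal of 3 embryo-restricted probe sets. Members were named when they had a gene, or had the largest smaller ratio, the largest or smallest difference between tissues, the highest non-seed level, or lay next to the limit of the rule; members of shared clusters, those detected in no non-seed tissue and other single ones were chosen after their values were seen. Gene names came from the platform annotation (1453 probe sets, 1452 with 1 gene) and the study's list of gene pairs. Genes without a name are given by probe set ID.

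Replicate numbers are shared between groups. Deviations of same-numbered arrays from their group means correlated at 0.109, 0.113 and 0.379 between 20 and 15 DAP embryos, at 0.197, -0.147 and -0.05 between 20 and 15 DAP endosperm, and at -0.07 to 0.05 between 20 DAP embryo and endosperm. The embryo numbers thus met the limit set for pairing, an r above 0.1 in every pair, and the others did not. Alternatives were quantile normalization, centring on the array median or, added after seeing the data, on the hybridization controls, a pseudocount, a filter, the arrays compared alone, a replicate block and leaving out arrays.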

Additional observations from a re-analysis of the deposited data

Results flagged for a closer look

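In 24 members the 20 against 15 DAP change differed between embryo and endosperm in the limma test of that difference, and all 24 had the larger change in the embryo. As log2 differences, embryo change minus endosperm change, they were 3.51 in Zm.2147.1.A1_a_at, 3.51 in Zm.9749.1.S1_a_at, 3.06 in Zm.9943.1.A1_at, 2.80 in Zm.15183.1.A1_at and 2.74 in Zm.9859.1.A1_at. Next came Zm.1595.1.S1_at (2.52), Zm.7149.1.A1_at (2.44), Zm.11928.1.A1_s_at (2.39), Zm.8578.3.S1_at (2.12), Zm.13389.1.S1_at (2.08) and Zm.2147.1.A1_s_at (2.00). Between 1 and 2 lay Zm.16524.6.A1_at (1.90), Zm.10412.1.S1_at (1.84), Zm.2792.1.S1_at (1.76), Zm.16227.1.A1_at (1.57), Zm.13506.1.S1_at (1.43), Zm.14833.1.A1_at (1.41), Zm.2020.1.A1_at (1.39) and Zm.10095.1.A1_at (1.37). The lowest were those of Zm.5543.1.A1_at (1.32), Zm.8328.1.A1_at (1.30), hmt4 (1.25), Zm.17573.1.A1_at (1.21) and Zm.16524.2.A1_at (1.01). Of these, Zm.11928.1.A1_s_at, Zm.13389.1.S1_at and Zm.13506.1.S1_at were detected in no non-seed tissue.

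Under the 25 alternatives run for each, 9 of the 24 differences passed every time and 15 did not. The most often lost were those of Zm.10412.1.S1_at (16 alternatives, among them the removal of 11 of the single arrays), Zm.16524.2.A1_at (15, also with 11 single arrays) and Zm.14833.1.A1_at (12, with 8 single arrays). Without replicate 1 of 20 DAP endosperm, the array with the lowest embryo marker sum of its group, hmt4 was at 0.84 (adjusted p = 0.0284), Zm.13506.1.S1_at at 0.86 (adjusted p = 0.0227) and Zm.2147.1.A1_s_at at 1.52 (adjusted p = 0.0525), so none of these passed both limits. Without replicate 1 of every tissue the difference of hmt4 was 0.74 (adjusted p = 0.119), that of Zm.13506.1.S1_at 0.69 (adjusted p = 0.163) and that of Zm.11928.1.A1_s_at 1.43 (adjusted p = 0.169). Zm.16524.6.A1_at was lost without replicate 3 of 15 DAP endosperm (adjusted p = 0.0505) or of 20 DAP embryos (adjusted p = 0.0505). The others that were lost, Zm.1595.1.S1_at, Zm.7149.1.A1_at, Zm.8328.1.A1_at, Zm.5543.1.A1_at, Zm.17573.1.A1_at, Zm.16227.1.A1_at, Zm.10095.1.A1_at and Zm.11928.1.A1_s_at, failed when 1 replicate number was left out of every tissue. The part of the array with the low marker sum in these differences was not tested.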

How the results depend on the processing

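Between 43 and 56 of the 92 members were called higher when arrays were left out, and none was lower. The endosperm count was the most fragile. It was 16, but 7 to 29 when arrays were left out (29 without replicate 1 of 20 DAP endosperm, 8 without replicate 2 and 7 without replicate 3 of every tissue), 30 without the fold limit and 7 with arrays centred on the hybridization controls. The count of members with a larger change in the embryo was 12 to 27 when arrays were left out, and the median difference, 0.52, was 0.30 to 0.93. Endosperm against non-seed tissues gave 30 to 38 higher and 21 to 26 lower, and its median of 0.50 was 0.13 to 0.57 without single arrays of 20 DAP endosperm, 0.11 with signals under 100 set to 100, and reversed to -0.054 on the hybridization controls, where the median of all probe sets was -0.49. The rule itself gave 190 members at a ratio of 3 and 40 at a ratio of 6. The members detected in no non-seed tissue were 18 at a signal of 200 and 5 at 50. The cause of these shifts was not tested, beyond the stricter or looser limit itself. With a replicate block the counts were 55 in the embryo, 17 in the endosperm, 24 for the difference and 33 higher and 22 lower against non-seed tissues, so the pairing moved no count by over 1.5 times. Of 92 calls of single members followed over 2282 values, 150 values lost the call, none reversed and 55 calls held under every alternative. A dim signal limits low members, since arrays under 100 give only a bound.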
